A study of Mus musculus with 4 samples.

Results

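The comparison is that of wild-type (WT) mouse type 1 conventional dendritic cells (cDC1) given lipopolysaccharide (LPS) together with the chemokine XCL1 against WT cDC1 given LPS alone. It rests on 2 of the 4 microarrays of the study, 1 for each treatment, and takes in the 25335 annotated probe sets of the 41345 on the array. Both samples were labelled WT, C57BL/6, female and from mice 10 weeks old. LPS was used at 100 ng/ml, and recombinant mouse XCL1 was added at 100 ng/ml to 1 of the 2 samples, in complete RPMI medium, so LPS is shared by both sides. The other 2 arrays carry the same treatments in XCR1-deficient (KO) cells of the same strain, labelled sex and age, and are given only beside the WT values. The sources used here do not state the number of mice or cell preparations, the tissue, how the cells were obtained or how long they were treated. With 1 array a side there is no replicate error, and no difference below was tested.

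XCR1 is a receptor coupled to inhibitory G proteins that is found mainly on cDC1, and XCL1, made by NK cells and activated CD8 T cells, is its ligand. Binding draws cDC1 towards these cells through G protein, phosphoinositide 3-kinase and small GTPase signals, and such signals act first on movement. LPS acts through Toll-like receptor 4 and turns on NF-kB, cytokine, interferon and maturation genes. The comparison therefore asks what XCL1 added to the RNA of cDC1 that were already receiving LPS.

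All values are log2 signals or differences between log2 signals, given as LPS with XCL1 minus LPS. A gene was counted as higher or lower where its log2 difference reached 0.585 in size, the log2 of 1.5. The limit on signal was 5.43, the median of all values, and a gene was counted among those measured where it reached the limit on at least 1 of the 4 arrays. This limit is not a measured background. Of 17528 named genes, 11071 passed it. The WT arrays had medians of 5.43 and 5.40 over all probe sets and correlated at a Pearson's r of 0.993 across genes, which are not independent replicates. Of the 25 cDC1 identity genes on the array, 24 passed the limit on both WT arrays, with mean signals of 8.45 with LPS and 8.51 with XCL1. Markers of other cells were past the limit too. B cell markers (12 of 13 on both arrays) averaged 7.90 and 7.96, plasmacytoid DC markers 8.50 and 8.52, NK cell and ILC markers 7.77 and 7.80, and T cell markers 6.88 and 6.88. The labelled sex does not match every sex-linked probe set. Xist, the transcript of the inactive X chromosome, gave 7.95 and 7.91 in WT, and the Y-linked genes Uty (8.27 and 8.27), Kdm5d (7.07 and 7.16) and Eif2s3y (8.57 and 8.80) also lay past the limit. In KO Xist was below the limit (4.64 and 4.57), and the Y-linked genes lay past it there too, so the genotypes differ in Xist by more than 3 log2 units. Within each pair these levels differed little, and their part in any result was not tested. In such bulk samples fewer cells of a type and less RNA per cell cannot be told apart.

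With XCL1 added to LPS in WT cDC1, 62 of the 11071 genes past the limit (0.56%) were counted. Of these, 25 (0.226% of all) were higher and 37 (0.334%) lower. The receptor gene Xcr1 was among the higher genes, while lists of cytokine, maturation and antigen presentation genes had median differences from -0.07 to 0.05. Over all genes the median difference was 0.03 and the SD across genes 0.176. Of the 11071 genes, 61.6% lay within 1.1-fold and 87.4% within 1.2-fold. The KO pair, which shares no array with the WT pair, gave 51 higher (0.461%) and 60 lower genes (0.542%), together 1.0% of the same genes, and an SD of 0.197. The cells that lack the receptor thus had no smaller spread between their treatments than the cells that carry it. The KO difference shared the WT sign for 8 of the 25 higher and 19 of the 37 lower genes, 27 of 62, and Rabggtb was counted in both pairs. The KO median over all genes was 0.04, and the share of all genes with a like sign was not counted. The balance of higher and lower genes depended on the scaling. It was 30 higher and 28 lower after cyclic loess, 33 and 30 with the median difference of genes of like signal subtracted, and 13 and 65 with each array centred on its gene median.

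Differences were wider at low signal. Among 2754 genes with a mean signal under 6 on the WT arrays, 41 were counted (1.49%), against 20 of 5149 from 6 to 8 (0.388%) and 1 of 3168 at 8 or more (0.0316%). The SD of the differences was 0.347 below 5, 0.227 from 5 to 6, 0.185 from 6 to 7 and 0.146 from 7 to 8. It narrowed further to 0.115, 0.109 and 0.107 in the next bins of 1 log2 unit and was 0.087 at 11 and over. In every bin the KO pair was wider, with an SD of 0.447 below 5 and 0.123 at 11 and over. The medians were not flat. They were -0.03 from 5 to 6, 0.04 from 6 to 7, 0.06 from 7 to 8 and 0.00 at 11 and over in WT. In KO the same bins gave -0.01, 0.05, 0.07 and 0.02. In both pairs dim genes thus leaned towards lower values with XCL1 and genes of middle signal towards higher ones. Of the 62 genes, 39 had a WT signal below the limit. With dim signals raised to the limit 27 remained, 13 higher and 14 lower.

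**Figure D1:**
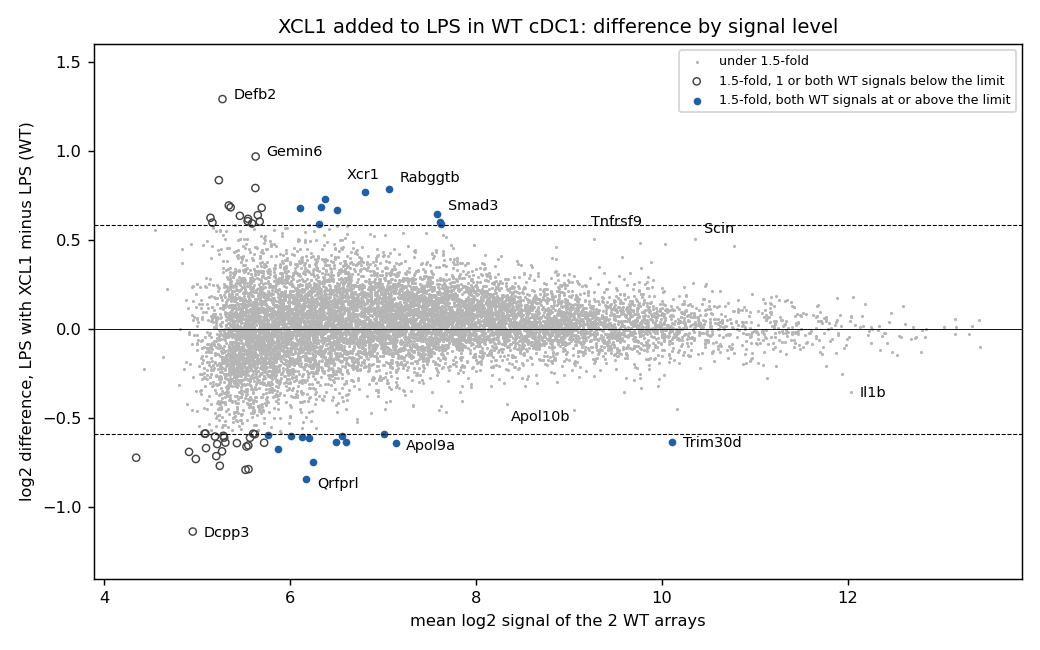
Log2 difference of each of 11071 genes in WT cDC1 (LPS with XCL1 minus LPS, y axis) against its mean log2 signal on both WT arrays (x axis), with genes that differed at least 1.5-fold as filled blue points where both WT signals reached the limit and as open circles otherwise. Dashed lines mark 1.5-fold, and of the 62 such genes Trim30d is the 1 above a mean signal of 8.

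**Figure D2:**
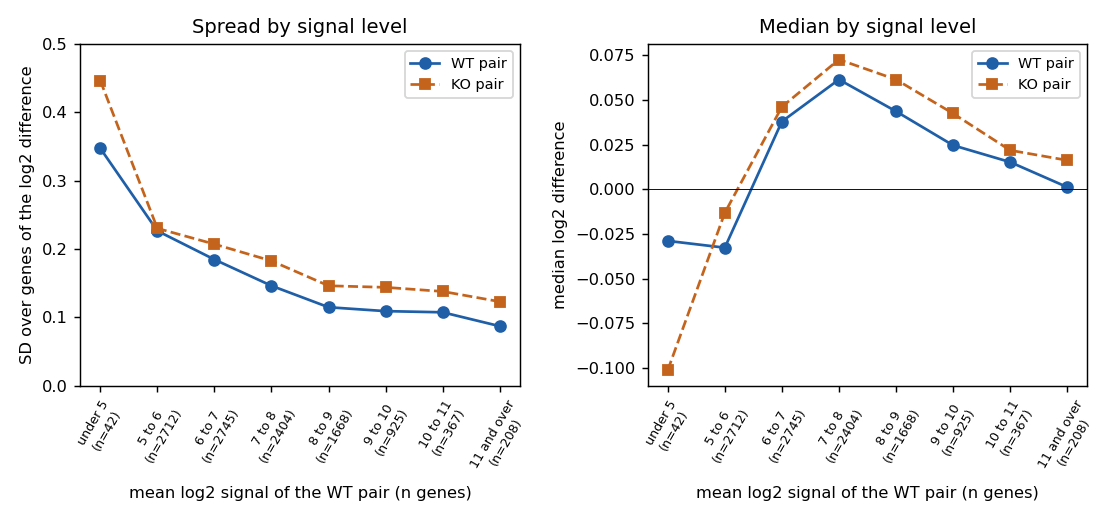
SD over genes of the log2 differences (left) and their median (right) by bin of mean log2 signal on the WT arrays (x axis), for the WT pair (blue) and the KO pair (orange, dashed). The SD in WT runs from 0.347 below 5 to 0.087 at 11 and over with the KO pair above it in every bin, and the WT median is highest, at 0.06, from 7 to 8.

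The genes that can be read most directly are those past the limit on both WT arrays. Among 10006 such genes, 10 were higher and 13 lower, 0.23% in all. The first of the higher ones was Rabggtb, the beta subunit of the enzyme that attaches geranylgeranyl lipids to Rab GTPases. It gave 6.67 with LPS and 7.46 with XCL1, a difference of 0.79, and the same direction was larger in KO (6.31 and 8.20, a difference of 1.89). Its catalytic partner Rabggta was level (-0.01), and the Rab escort genes Chml and Chm gave 0.58 and -0.02.

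Xcr1 itself came next. Its signal was 6.42 with LPS and 7.19 with XCL1, a difference of 0.77, and both WT values lay above both KO values (5.54 and 5.11). The KO values bracket the limit, and in KO the array with XCL1 was the lower one (-0.43). No other probe set of Xcr1 was counted, so the value has no second reading on the array. Xcl1, the gene of the ligand, gave 7.91 and 7.93 in WT. The promoter of Xcr1, from 250 bases before to 50 after the start, is shown because Xcr1 encodes the receptor of the added chemokine. It lies at chr9:123861980-123862279 on the minus strand of GRCm38.p6, from RefSeq, and is printed without capitals because it holds no match to the interferon-response core described with the Trim30 and Apol genes.
Xcr1: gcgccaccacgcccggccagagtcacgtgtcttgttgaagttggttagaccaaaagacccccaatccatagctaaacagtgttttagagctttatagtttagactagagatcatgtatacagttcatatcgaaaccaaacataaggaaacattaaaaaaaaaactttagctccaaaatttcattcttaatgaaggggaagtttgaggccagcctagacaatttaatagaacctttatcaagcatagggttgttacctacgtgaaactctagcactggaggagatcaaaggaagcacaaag

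The other 8 higher genes were of different kinds. P3h1, which hydroxylates prolines of collagen, gave 6.01 and 6.73 (0.73). Ubxn2b, an adaptor of the p97 ATPase, gave 5.99 and 6.68 (0.69), and Smad3, which carries TGF-beta signals to the nucleus, 7.26 and 7.90 (0.65). In KO these genes differed by -0.18, -0.13 and -0.03, so none of them was higher there. S100a6, a calcium-binding protein, gave 7.33 and 7.92 (0.59), and Macc1, a regulator of growth factor receptor signalling, 7.31 and 7.91 (0.60). Macc1 was close to this in KO (0.54), unlike S100a6 (0.19). The zinc finger gene Zfp930 (0.68), the tripartite motif gene Trim43c (0.67) and the isoprenoid enzyme Idi2 (0.59) made up the 10. Trim43c has near-identical copies, and a second probe set of Idi2 gave -0.24, so both are uncertain. Gramd4 and Chml, at 0.58, fell just short of the threshold.

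Lower with XCL1 and measured on both arrays were genes of quite different kinds. The largest such difference was that of Qrfprl, at 6.60 with LPS and 5.75 with XCL1 (-0.84). Bcl9l, a cofactor of beta-catenin, gave 6.62 and 5.87 (-0.75), and Hbq1b, a theta globin, 6.21 and 5.53 (-0.67). The theta globin was lower in KO as well (-0.35), and Bcl9l was near level there (-0.10). Abcb1a, an efflux pump for drugs and lipids, gave 6.91 and 6.28 (-0.63), and Gcsh, the lipoyl carrier of the glycine cleavage system, 6.81 and 6.18 (-0.63). Gfi1b, a repressor of the megakaryocyte and erythroid lineages, differed by -0.61, the small nucleolar RNA host gene Snhg11 by -0.61, the tripartite motif gene Trim16 by -0.60 and Cldn11, a tight junction claudin, by -0.59. A second probe set of Snhg11 gave -0.50. Speer4c, a multicopy gene whose copies may share probes, was at -0.59. The other 3 of the 13 were Trim30d, Apol9a and Apol7b, which belong to families described below with their relatives.

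**Figure D3:**
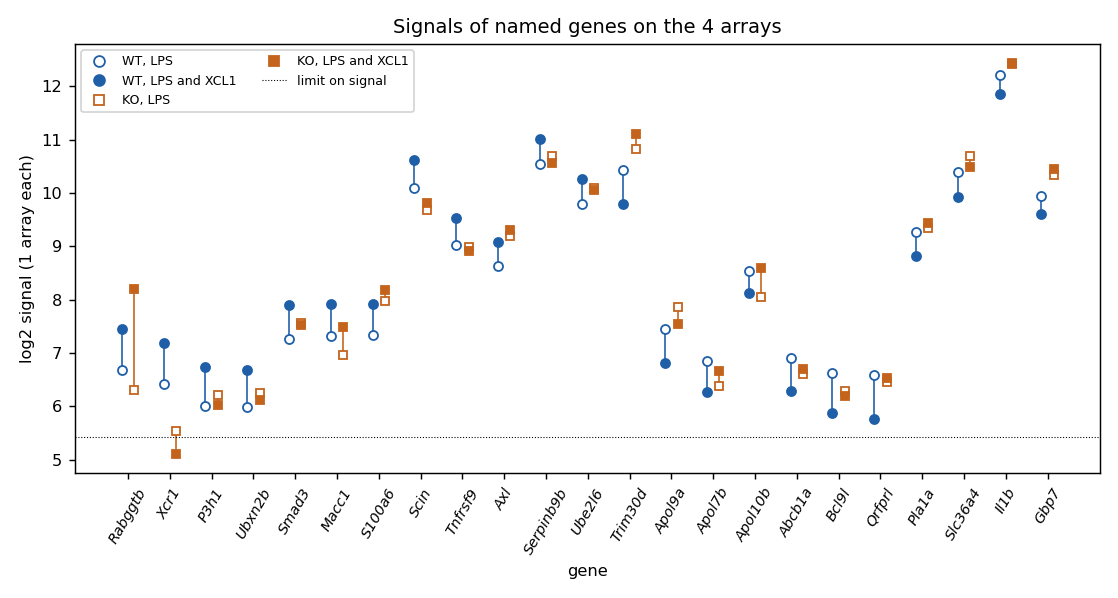
Log2 signals (y axis) of named genes (x axis) on the 4 arrays, with LPS as open and LPS with XCL1 as filled symbols, WT in blue and KO in orange, and the limit on signal as a dotted line. Rabggtb is higher with XCL1 in both genotypes, while Xcr1 goes from 6.42 to 7.19 in WT and from 5.54 to 5.11 in KO.

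The largest differences of all belonged to genes that left or entered the measured range. Defb2, a beta-defensin, gave 4.62 with LPS and 5.92 with XCL1 (1.29), and Dcpp3, a demilune cell gene with near-identical copies, 5.52 and 4.38 (-1.13). They were the 2 genes that differed 2-fold. Against the limit Defb2 was at least 0.49 higher and Dcpp3 at least 0.09 lower on the log2 scale, so neither difference reaches 1.5-fold by what was measured. Gemin6, a subunit of the SMN complex that builds splicing particles, gave 5.14 and 6.11 (0.97) and held against the limit at 0.68, but its second probe set gave 0.29. Sec61b, a subunit of the channel that passes proteins into the endoplasmic reticulum, went from 4.99 to 5.68 (0.69, or 0.26 against the limit). Kdelr3, a receptor that returns proteins to the endoplasmic reticulum, was at 5.14 and 5.77 (0.64, or 0.35 against the limit). Among lower genes, Ccr8, a chemokine receptor, gave 5.56 and 4.85 (-0.71, or -0.13 against the limit), Gchfr, the feedback regulator of GTP cyclohydrolase, 5.62 and 4.86 (-0.77, or -0.20) and the cytokine gene Il25 5.58 and 4.98 (-0.60, or -0.15). Ifi208 of the PYHIN DNA sensors, which has close relatives, was at 4.86 and 5.46 (0.60, or 0.03 against the limit).

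Other probe sets of the same genes gave a further reading within these arrays. Of the 62 genes, 5 had another probe set, 9 in all, of which 7 had the same sign and 3 differed 1.5-fold the same way. All 3 belong to Sly, a multicopy Y-linked gene, and carry identical values, so they are no separate readings. The SD between probe sets of a gene was 0.157 among the 359 genes that had more than 1 past the limit on both WT arrays. Probe sets of a gene with identical values were kept, which narrows this SD. The SD of the differences over all genes, given above, was 0.176, but those include genes below the limit on a WT array.

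Bright genes had narrower differences, and a lower threshold shows which of them stood at the edges. Among 3168 genes with a mean signal of at least 8, 34 (1.07%) differed by at least 0.32 on the log2 scale, 27 higher (0.852%) and 7 lower (0.221%). This lower threshold was chosen after the values were seen. The KO pair held 117 such genes (3.69%), 79 higher (2.49%) and 38 lower (1.2%). Of the 27 genes higher in WT, 17 were above 0 in KO and 3 passed 0.32 there. Of the 7 lower ones, 1 was below 0 in KO. In KO the medians of the bins from 8 up were 0.06, 0.04, 0.02 and 0.02, so bright genes as a whole leaned above 0 there.

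The 27 bright genes that were higher were of many kinds. Scin, an actin-severing protein, gave 10.10 with LPS and 10.61 with XCL1 (0.51), and Tnfrsf9, the co-stimulatory receptor 4-1BB, 9.02 and 9.53 (0.51). In KO they differed by 0.12 and -0.07. Bst2, the interferon-inducible tether of budding viruses, gave 9.52 and 10.00 (0.48), and was further apart in KO (0.97). Ube2l6, the conjugating enzyme for ISG15, was at 0.48 and Serpinb9b, of a family that includes granzyme inhibitors, at 0.47 (10.54 and 11.01). Axl, a receptor for phosphatidylserine on dead cells that is bridged by Gas6, gave 8.63 and 9.09 (0.46). Spcs3, a subunit of the signal peptidase, and Tubb6, a beta-tubulin, were both at 0.41. Further bright genes past 0.32, named after their values were seen, were Marcksl1, which binds actin (0.40), Cstb, an inhibitor of cathepsins (0.40), Itgb8, an integrin chain that activates TGF-beta (0.38), Anxa1 (0.37), Nrp2 (0.36), the nuclear RNA Neat1 (0.35) and Clec7a, the beta-glucan receptor Dectin-1 (0.34).

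The 7 bright genes that were lower were also of different kinds. Il1b, the gene of interleukin-1 beta, gave 12.21 with LPS and 11.86 with XCL1 (-0.35), and 12.42 and 12.43 in KO. Gbp7, an interferon-induced GTPase, gave 9.94 and 9.61 (-0.33), Apol10b 8.54 and 8.12 (-0.42) and Trim30d 10.42 and 9.79 (-0.63). In KO these 3 were at 0.10, 0.53 and 0.27, in the other direction. The others were Pla1a, a phospholipase that acts on phosphatidylserine (9.28 and 8.82, -0.45), the amino acid transporter gene Slc36a4 (10.39 and 9.94, -0.45) and the ribosomal protein gene Rpl7 (-0.35). Coro1a, which regulates actin, fell just short of the threshold at -0.32.

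Several apolipoprotein L genes were lower with XCL1. Some genes of this family are interferon-inducible in mice, and they lie together on chromosome 15 and resemble each other closely. Of 13 on the array, 7 passed the limit. Of these, 6 were below 0, or all 7 under cyclic loess, centring and subtraction of the median by signal, and 3 were lower at 1.5-fold, against 0.334% of all genes. The family was noticed after its values were seen. Apol9a gave 7.45 with LPS and 6.81 with XCL1 (-0.64), Apol9b 5.87 and 5.22 (-0.65, or -0.44 against the limit, which ends its call) and Apol7b 6.86 and 6.26 (-0.60). Apol10b followed at -0.42, while Apol7c, at 12.41 and 12.29, was at -0.12, Apol8 at -0.13 and Apol7e at 0.02. The family median was -0.42 in WT and 0.05 in KO, where 5 of the 7 were above 0. Apol9a was lower in KO too (-0.33) and Apol9b higher (0.34), although their promoters are the same over 278 aligned bases and probes may not tell the genes apart.

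Trim30d was lower while its relatives past the limit were level or above 0 in the WT pair. Trim30 genes encode tripartite motif proteins induced by interferon and lie side by side on chromosome 7. Trim30d was at -0.63, while Trim30a gave 9.78 and 9.78 (-0.01), Trim30b 8.06 and 8.14 (0.08) and Trim30c 8.08 and 8.28 (0.20). The pseudogene Trim30e-ps1 was at -0.59, but both its WT signals (3.52 and 2.93) lay below the limit. In KO the 4 genes past the limit were above 0, from 0.13 to 0.27. In WT 2 of these 4 were above 0 under each scaling.

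Promoters of both families are shown because relatives with nearly the same upstream sequence gave unequal differences. They come from RefSeq on GRCm38.p6 and run from 250 bases before to 50 after the start. Capitals mark matches to the core of interferon-stimulated response elements, taken as GAAA, any 2 bases and GAAA again, or on the other strand TTTC, any 2 bases and TTTC, with overlapping matches joined. It occurs in 1131 of 32851 promoters, or 3.44%. Trim30d (chr7:104507800-104508099, minus strand) and Trim30a (chr7:104465144-104465443, minus strand) each hold 1 match and are 93.9% identical over 295 aligned bases, yet differed by -0.63 and -0.01. Apol7b (chr15:77447411-77447710, minus strand) and Apol7e (chr15:77698639-77698938, plus strand) are 99.3% identical over 295 aligned bases. Gaps are left out of these percentages, and Apol7b lacks a few bases within the marked stretch of Apol7e. Apol7e holds 2 matches where Apol7b holds none. Their differences were -0.60 and 0.02. Apol9a (chr15:77411031-77411330, minus strand), at -0.64, holds 2 and Apol10b (chr15:77596076-77596375, minus strand), at -0.42, holds 1. Among the promoters shown, lower and level members alike held matches, and Apol7b, which was lower, held none. Of members not shown, Apol9b (-0.65) and Apol7c (-0.12) hold 2 matches each. Apol8 (-0.13), Trim30b (0.08) and Trim30c (0.20) hold none. Whether these letters bear on the differences was not tested. A match is a description of the sequence and not a shown site.
Trim30d: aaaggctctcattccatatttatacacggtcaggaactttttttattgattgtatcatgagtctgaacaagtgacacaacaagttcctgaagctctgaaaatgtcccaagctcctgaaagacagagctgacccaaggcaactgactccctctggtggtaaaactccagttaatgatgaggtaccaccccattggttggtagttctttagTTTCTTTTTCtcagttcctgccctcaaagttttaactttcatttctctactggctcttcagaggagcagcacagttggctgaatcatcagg
Trim30a: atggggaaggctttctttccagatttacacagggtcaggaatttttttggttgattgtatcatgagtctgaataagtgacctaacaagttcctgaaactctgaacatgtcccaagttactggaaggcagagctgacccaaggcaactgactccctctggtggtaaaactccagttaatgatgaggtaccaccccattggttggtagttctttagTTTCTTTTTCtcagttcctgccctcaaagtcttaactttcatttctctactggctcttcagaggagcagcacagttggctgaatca
Apol7b: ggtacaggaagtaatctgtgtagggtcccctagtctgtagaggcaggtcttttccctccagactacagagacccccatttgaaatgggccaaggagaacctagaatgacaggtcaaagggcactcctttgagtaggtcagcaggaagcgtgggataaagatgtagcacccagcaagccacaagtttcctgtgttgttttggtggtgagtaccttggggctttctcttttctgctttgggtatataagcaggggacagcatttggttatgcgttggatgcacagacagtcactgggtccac
Apol7e: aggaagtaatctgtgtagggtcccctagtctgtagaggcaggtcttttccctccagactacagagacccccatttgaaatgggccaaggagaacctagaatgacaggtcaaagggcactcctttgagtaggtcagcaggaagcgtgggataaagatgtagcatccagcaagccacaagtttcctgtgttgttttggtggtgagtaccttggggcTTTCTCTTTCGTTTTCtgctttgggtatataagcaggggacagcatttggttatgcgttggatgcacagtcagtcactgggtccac
Apol9a: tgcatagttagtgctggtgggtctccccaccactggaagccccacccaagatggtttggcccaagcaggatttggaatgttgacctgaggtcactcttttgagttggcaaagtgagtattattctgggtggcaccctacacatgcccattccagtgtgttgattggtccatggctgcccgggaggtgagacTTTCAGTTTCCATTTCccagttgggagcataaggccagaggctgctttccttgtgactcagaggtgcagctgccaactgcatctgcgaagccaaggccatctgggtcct
Apol10b: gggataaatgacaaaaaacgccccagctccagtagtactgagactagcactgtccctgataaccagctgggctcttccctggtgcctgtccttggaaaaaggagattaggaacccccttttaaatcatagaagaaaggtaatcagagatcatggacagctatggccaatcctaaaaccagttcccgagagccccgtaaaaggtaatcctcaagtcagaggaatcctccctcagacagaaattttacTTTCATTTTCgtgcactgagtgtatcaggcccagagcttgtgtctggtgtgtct

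Guanylate-binding proteins and immunity-related GTPases, which attack the vacuoles of intracellular microbes after interferon, leaned the same way by smaller steps. None of the 12 past the limit differed 1.5-fold, against 0.56% of all genes. Of the 8 guanylate-binding genes, 7 were below 0, or all 8 with each array centred, with a median of -0.27. Gbp7 was at -0.33, Gbp2b at -0.32, Gbp4 at -0.28, Gbp8 and Gbp5 at -0.27 and Gbp10 at -0.15. Gbp9 was level (-0.01) and Gbp3 above 0 (0.07). The GTPases Iigp1 (-0.17), Irgm1 (-0.15), Igtp (-0.11) and Irgm2 (-0.06) were below 0 too, under each scaling. In KO 6 of the 8 guanylate-binding genes were above 0, with a median of 0.10. Tubulin genes leaned the other way, with 10 of 11 above 0 and a median of 0.18, or 9, 9 and 7 of 11 under loess, subtraction by signal and centring. Tuba1a gave 7.23 and 7.61 (0.37) and Tuba8 5.35 and 5.78 (0.43), while the brightest, Tubb5, was level at 0.02. Cathepsins, the proteases of lysosomes, were above 0 in 9 of 12, or 8 under the other scalings, with a median of 0.16 in WT and in KO alike. All these families were chosen after their values were seen.

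Of 46 gene lists, 31 had a median above 0, and the side of 0 depended on the scaling. With each array centred on its gene median 7 did and 24 medians changed sign, and 8 changed sign under cyclic loess and 12 with the median by signal subtracted, so list medians near 0 have no settled direction.

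The XCR1 pathway was described by 5 lists, and apart from the chemokine receptors none held a gene that differed 1.5-fold. Over all genes 0.56% did, so a list of this size would often hold none. Inhibitory G protein subunits and their regulators had a median of 0.01, with 14 of 24 above 0. Gnai2 and Gnai3, the main inhibitory alpha subunits of leukocytes, were at 0.05 and 0.11. The furthest members were Gpsm3 (-0.44), which binds G protein subunits, the GTPase accelerators Rgs18 (-0.38) and Rgs10 (-0.26), and the gamma subunit Gng2 (0.23). Rgs1, a GTPase accelerator that curbs chemokine receptors, was at 11.60 and 11.58. Genes of phosphoinositide 3-kinase, calcium and small GTPase signalling had a median of 0.00, from -0.18 (Pik3r5, a regulator of PI3K gamma) to 0.23 (Itpr3, a calcium channel). Dock2, the Rac activator needed for chemotaxis, was at 0.14.

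Genes that answer receptor signals within minutes to hours were level. Immediate early and MAPK feedback genes had a median of 0.02, with 16 of 30 above 0. Fos was at -0.07, Egr1 at 0.14, Nr4a1 at -0.02 and Nr4a3, at 12.24 and 12.25, at 0.01. Dusp4, a phosphatase that turns off ERK, was the furthest at 0.38 (6.46 and 6.84) and was higher still in KO (0.77). Spry2 was at -0.30, Ier3 at 0.26 and Nr4a2 at -0.22. Among 15 chemokine receptors past the limit, Xcr1 was higher and Ccr8 lower, and the median was 0.07. Cxcr6, the CXCL16 receptor, gave 5.19 and 5.74 (0.55) in WT and a like difference in KO (0.51), and Ackr2, which scavenges CC chemokines, was at -0.39. Ccr7, which guides mature dendritic cells to lymph nodes, was at 12.85 and 12.72 (-0.13). Integrin, actin and migration genes had a median of -0.01, with Marcksl1 at 0.40 and Coro1a at -0.32 as the furthest, then Itgb7 and Vcl at 0.18 each.

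Genes of the LPS response differed little, with a tilt towards lower values in the cytokine and interferon lists. The median was 0.01 for Toll-like receptors and adaptors. Tlr12, which senses profilin, was the furthest (5.48 and 5.98, 0.50), the LPS co-receptor gene Ly96 was at -0.26, and Tlr4 stayed below the limit on all 4 arrays. NF-kB subunits, inhibitors and targets had a median of -0.00, with Ptgs2 at -0.32, the inhibitor gene Nfkbid at 0.28 and Tnfaip2 at -0.22. Of 23 inflammatory cytokine genes, 5 were above 0, or 3 under the other scalings, against 58.3% of all genes, with a median of -0.07. Il1b (-0.35) was the furthest below, then Tnfsf15 (8.01 and 7.69, -0.32). The co-stimulatory ligand gene Tnfsf4 was the furthest above (6.36 and 6.68, 0.31) and was higher in KO as well (0.50), and Tnfsf10 was at 0.25. The genes of IL-12, the cytokine with which cDC1 drive type 1 responses, were at -0.03 (Il12b) and -0.20 (Il12a), and Tnf was at -0.07. In KO 16 of the 23 were above 0, with a median of 0.10.

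Chemokine genes had a median of -0.04, with 7 of 18 above 0. Ccl9 was at -0.28 (9.90 and 9.62), Cxcl14 at -0.27, Ccl3 at -0.25 (12.06 and 11.81) and Cxcl2 at -0.23. The brightest, Ccl22, was at -0.03, and Cxcl9, which draws T cells, at -0.04. Of 11 interferon and interferon receptor genes, 2 were above 0 under each scaling, with a median of -0.17. Ifna4 gave 7.91 and 7.45 (-0.46) and Ifna7 6.48 and 6.06 (-0.42), but both were further below 0 in KO (-1.08 and -0.74). Interferon alpha genes are near-identical copies, so probes may be shared. The lambda interferon genes Ifnl2 (-0.30) and Ifnl3 (-0.22) and the interferon gamma gene Ifng (-0.21) were also below 0, while Ifnb1 stayed below the limit. The interferon-stimulated genes as a whole did not follow, with 17 of 36 above 0 and a median of -0.00. Bst2 (0.48), Gbp5 (-0.27), Ifit3b (0.27) and Dhx58 (0.20) lay furthest from 0, and Isg15, Ifit1 and Mx1 were at -0.02, -0.03 and 0.02.

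The smaller LPS lists were also near level. Suppressors of cytokine signalling and STAT genes had a median of 0.03, with Socs5 at -0.26, Socs7 at 0.20, Socs1 at 0.05 and Socs3 at -0.06. Among enzymes of tryptophan, arginine and nitric oxide Gchfr was the 1 gene of 16 past 1.5-fold, and Ass1 (-0.35), Asl (0.26) and Slc7a11 (0.24) followed. Ido1, the first enzyme of the kynurenine route, was at -0.20 and Nos2 at 0.01. Prostaglandin and leukotriene genes split evenly, with Ptgs2 and Ltc4s at -0.32, Lta4h at 0.31 and Tbxas1 at -0.29.

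**Figure D4:**
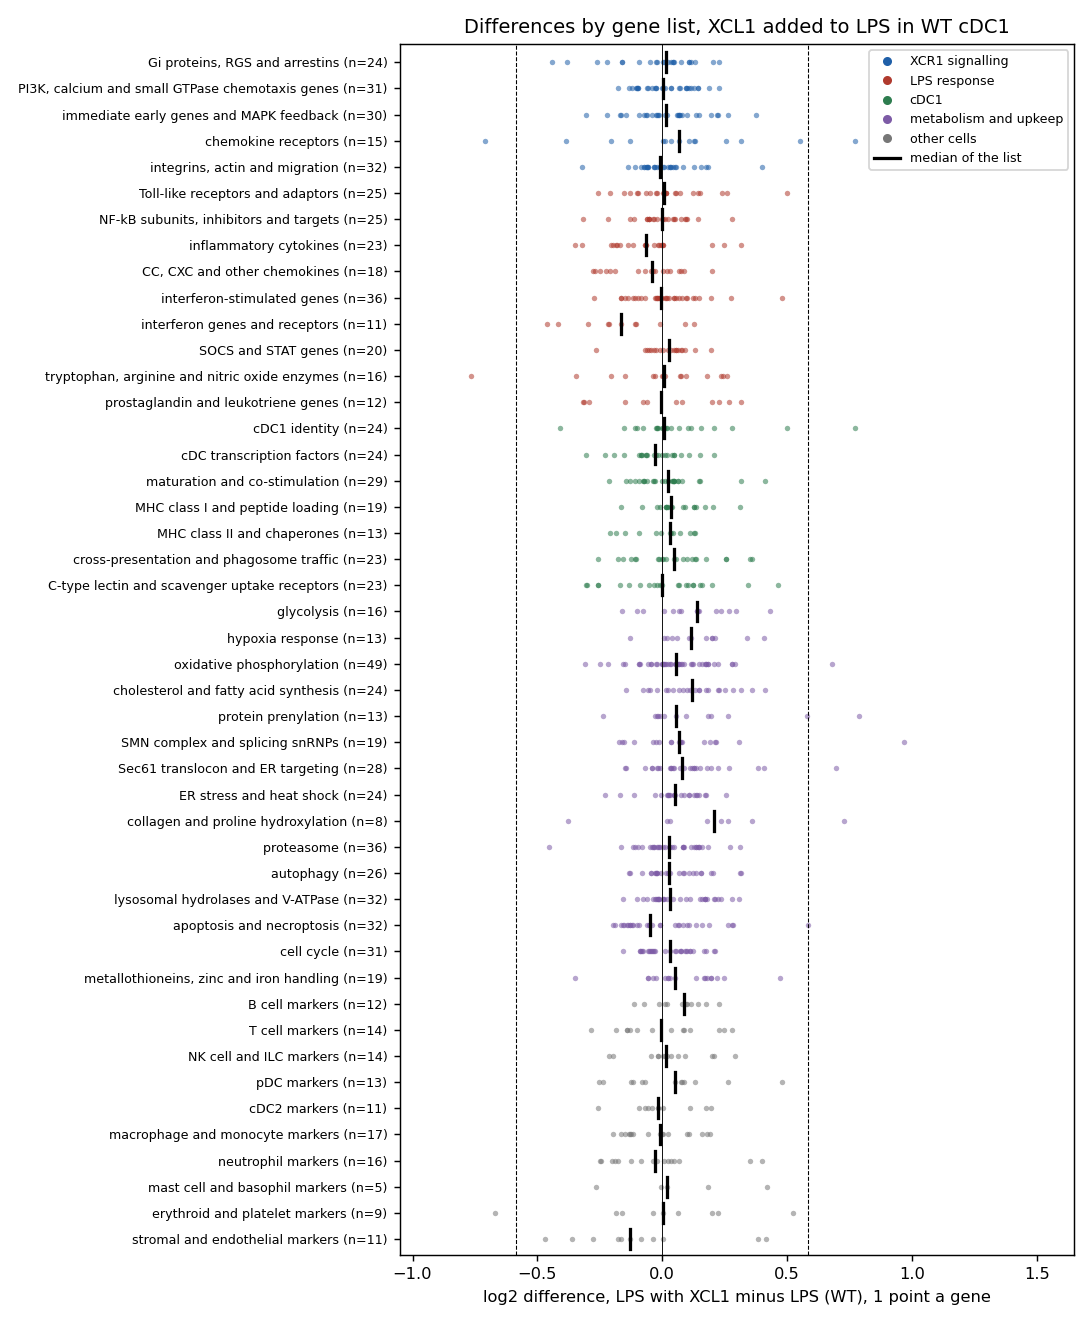
Log2 differences in WT (LPS with XCL1 minus LPS, x axis) of the members past the limit of each of 46 gene lists (y axis), 1 point a gene, coloured by kind of list, with the median of each list as a black bar and 1.5-fold as dashed lines. Medians lie close to 0, from -0.17 for interferon genes and receptors to 0.21 for collagen and proline hydroxylation, of which 7 of 8 members are above 0, or 5 under the other scalings.

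Genes that make a cDC1 what it is were level but for the receptor. The identity list had a median of 0.01 with 14 of 24 above 0, and Xcr1 was its 1 gene past 1.5-fold. Tlr12 (0.50), Fgd6 (-0.41) and Rab7b (0.28) came next. The lineage factors Batf3 (-0.15), Irf8 (-0.03), Id2 (0.02) and Zbtb46 (0.21), the adhesion gene Cadm1 (0.12) and the cross-presentation gene Wdfy4 (0.00) stayed within 1.2-fold. Transcription factors in all had a median of -0.03, with Ikzf1 at -0.30 the furthest. Maturation and co-stimulation genes had a median of 0.02, with Slamf1 the furthest (6.79 and 7.21, 0.41), then Tnfsf4 (0.31) and Nectin2 (-0.21). Cd80, a ligand of CD28, was at 12.60 and 12.46 (-0.15).

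Antigen presentation genes differed no more. Class I genes had a median of 0.04, with 15 of 19 above 0, or -0.03 and 8 of 19 with centring. Psme2, a subunit of the proteasome activator, was at 0.31, H2-Q4 at 0.20, Tap2, a chain of the peptide transporter, at 0.17 and Psme1 at -0.17. Class II genes had a median of 0.03, with the editors of peptide loading below 0 (H2-DMb2 at -0.21, H2-Ob at -0.19, H2-Oa at -0.15) and the chains H2-Ab1 and H2-Aa at 0.13 and 0.07. For cross-presentation and phagosome traffic the median was 0.05, with Stx3 (0.36), Rab39 (0.35), Rab3c (-0.26) and Stx4a (0.26) furthest from 0. Among uptake receptors the median was -0.00. Axl and Clec7a were above 0, and Clec4n and Msr1, which bind fungal sugars and modified lipoproteins respectively, were below (-0.30 each).

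Of the metabolic lists, those of glycolysis, hypoxia and cholesterol kept a median above 0 under each scaling. Glycolysis had a median of 0.14, with 13 of 16 above 0, or 10 with centring. The lactate transporter Slc16a1 gave 7.35 and 7.78 (0.43), the mutase Pgam1 7.60 and 7.90 (0.29), Hk1 6.68 and 6.95 (0.27) and the glucose transporter Slc2a1 7.54 and 7.78 (0.24). In KO 10 of the 16 were above 0 with a median of 0.16, but Pgam1 (-0.18) and Slc2a1 (-0.04) were below. Hypoxia genes had 12 of 13 above 0, or 8 with centring, with a median of 0.12. Ddit4, an inhibitor of mTOR, was at 0.41 and Vhl, which marks HIF for destruction, at 0.34. Hif1a was level (0.01).

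Cholesterol and fatty acid genes had 19 of 24 above 0 and a median of 0.12, which was 0.14 in KO. Srebf1, the regulator of lipid synthesis, gave 6.73 and 7.14 (0.41), the mevalonate kinase gene Mvk 6.53 and 6.89 (0.36), and the sterol exporters Abca1 and Abcg1 were at 0.31 and 0.28. These last respond to sterol excess and the synthesis genes to sterol lack, and both kinds lay above 0. Oxidative phosphorylation genes had a median of 0.05 with 36 of 49 above 0, but of -0.01 with 20 of 49 above 0 after centring. They included Coq10a, which was higher (5.35 and 6.03, 0.68). Atp5g1 (-0.31), Ndufa1 (0.29) and Ndufv1 (0.28) followed.

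In the lists of protein handling the differences sat in a few members. Translocon and targeting genes had a median of 0.08 with 20 of 28 above 0. Sec61b was higher, and Spcs3 (0.41), Srp14 (7.04 and 7.43, 0.38) and Ddost (0.27) followed, but the channel subunits Sec61a1 and Sec61g were at 0.13 and -0.15. Collagen and proline hydroxylation genes had 7 of 8 above 0, or 5 under the other scalings, and a median of 0.21. Beside P3h1 they included its partners Crtap (0.26) and Ppib (0.18), and Plod1 (0.36), with P3h2 at -0.38. In KO 3 of the 8 were above 0. Prenylation genes had a median of 0.06, and the SMN complex and splicing particles 0.07, with Rabggtb and Gemin6 the 1 gene past 1.5-fold in each. Heat shock and endoplasmic reticulum stress genes were at 0.05, with Hspa1a at 0.26. Proteasome, autophagy and lysosome lists had medians of 0.03 each, with Psma5 (-0.45), Map1lc3a (0.32) and Ctsa (0.31) furthest from 0.

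Survival, division and metal genes closed the lists. Apoptosis genes had a median of -0.05, with 13 of 32 above 0. Bbc3, the p53 target PUMA, gave 5.11 and 5.69 (0.58, just short of 1.5-fold, or 0.27 against the limit). Trp53cor1, another p53 target outside the list, was at 5.33 and 5.97 (0.64, or 0.54 against the limit), while Cdkn1a was at -0.08. Cell cycle genes had a median of 0.03, and none of the 31 lay further from 0 than Aurkb and Rrm2, at 0.21 each. Metallothioneins Mt2 (7.50 and 7.97, 0.47) and Mt1 (7.67 and 7.92, 0.25) were above 0 in WT and below 0 in KO (-0.63 and -0.47). Hamp, the hepcidin gene, was at -0.35 in WT and -1.21 in KO.

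Markers of other cells were close on both WT arrays. No marker of B cells, T cells, NK cells, plasmacytoid DCs, cDC2, macrophages, neutrophils or mast cells differed 1.5-fold, against 0.56% of all genes. The medians of these lists lay from -0.03 for neutrophils to 0.09 for B cells. In the erythroid and platelet list Hbq1b was lower and Gp9, a platelet glycoprotein gene, at 0.52. Stromal and endothelial markers had the lowest median of these lists, -0.13, with 3 of 11 above 0. Col3a1 was at -0.47 (5.83 and 5.36) and Cdh5 at 0.42 (5.84 and 6.25). Of these 11, 7 passed the limit on both WT arrays, and most stromal markers lay near or below it.

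The share of probe sets that differed 1.5-fold was not the same in every class of gene symbol. Among probe sets with 1 gene symbol past the limit, 109 of 12997 (0.839%) did. Several classes held 1 or 0, too few to set apart from this share. The count was 1 of 227 (0.441%) for solute carriers and 0 of 59 for genes with a Rab symbol. It was 0 of 164 for Tmem genes and 1 of 72 (1.39%) for mitochondrial ribosomal protein genes. Predicted Gm genes gave 12 of 410 (2.93%), 10 of them lower, and Zfp zinc finger genes 5 of 270 (1.85%), 4 of them higher. Olfactory receptor genes gave 5 of 96 (5.21%), among them Olfr605 (6.03 and 6.72, 0.69) and Olfr1337 (6.24 and 5.56, -0.68). The olfactory and Gm classes were dim, with median signals of 5.78 and 6.03. Of all probe sets with 1 symbol and a signal from 5 to 6, 1.92% differed 1.5-fold. In KO 8 of the same olfactory and 14 of the same Gm probe sets did. Symbols with the prefixes of multicopy germline genes of the X and Y, which also took in Slx4 and Slx4ip, gave 4 of 12. All 4 were probe sets of Sly with identical values. Both WT signals of Sly (4.70 and 3.98) lay below the limit, so against the limit its difference was 0.0.

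Small nucleolar RNAs, which guide chemical changes on ribosomal RNA, were level in WT and spread upwards in KO. In WT none of 78 past the limit differed 1.5-fold, the median was 0.01 and the SD 0.163. Their median signal was 8.49, and from 8 to 9 no probe set with 1 symbol differed 1.5-fold in WT. In KO 22 of the same 78 did, against 1.0% of all genes, with a median of 0.41 and an SD of 0.491. In WT the furthest were Snord52 (5.46 and 5.96, 0.50), Snora2b (0.47) and Snora73a (7.74 and 8.12, 0.38) above 0 and Snord123 (-0.35) and Snora23 (11.16 and 10.88, -0.28) below it. Snora73a was at 1.82 in KO. The class of spliceosomal and other small RNAs was alike, with none of 10 in WT and 3 of 10 in KO, and medians of -0.03 and 0.44. Whether the treatments differ between genotypes here was not tested, and the prefixes of the array names differ between the genotypes. Cytosolic ribosomal protein probe sets had a median of -0.00 in WT, and 4 of 86 (4.65%) differed 1.5-fold. For 3 of these genes, Rpl21, Rpl3 and Rps28, other probe sets were nearer 0. Rpl21 gave 0.61, -0.02 and -0.04, Rpl3 -1.02, -0.21 and -0.20, and Rps28 0.63 and -0.05. The 1 other gene was Rpl39l (-0.59).

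**Figure D5:**
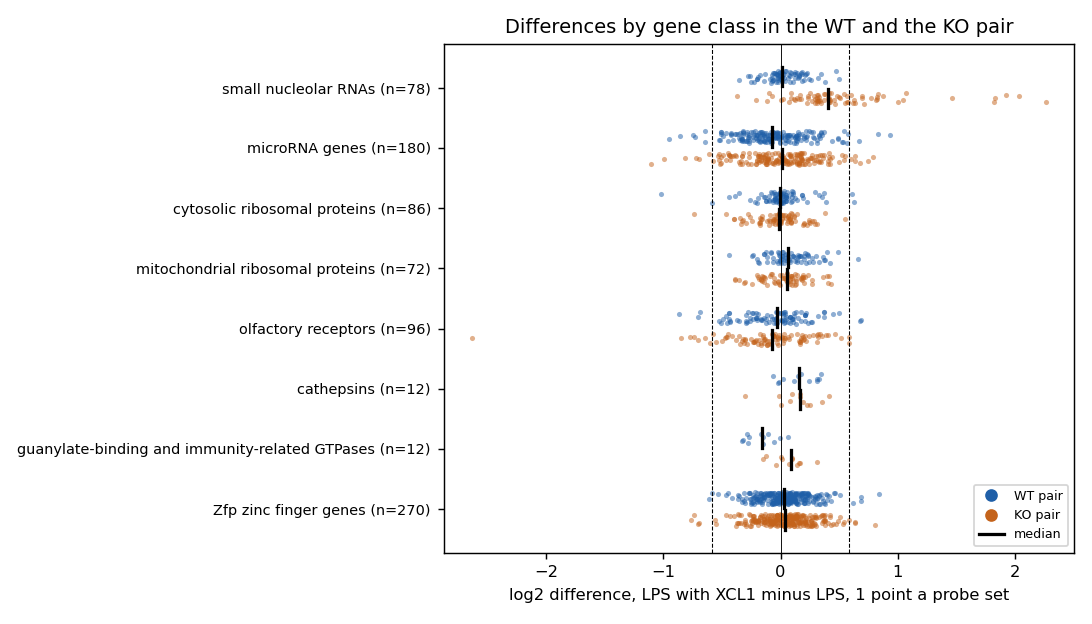
Log2 differences (LPS with XCL1 minus LPS, x axis) of probe sets past the limit in 8 classes of gene symbol (y axis), in WT (blue) and KO (orange), with the median of each as a black bar and 1.5-fold as dashed lines. Small nucleolar RNAs centre on 0.01 in WT and on 0.41 in KO, while microRNA genes have medians near 0 in both and a wider spread in WT than small nucleolar RNAs (SD 0.297 against 0.163).

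Of the microRNA genes, 180 of 511 probe sets passed the limit and 9 of these (5.0%) differed 1.5-fold, 3 higher and 6 lower, against 0.839% of all probe sets with 1 symbol. Their median was -0.07 and their SD 0.297. In KO 12 of the same 180 differed 1.5-fold, with a median of 0.01 and an SD of 0.318. These probe sets read precursor or primary transcripts in a total RNA array and say nothing direct of the mature form. Past the limit on both WT arrays were Mir3473c (5.56 and 6.50, 0.93), Mir669j (5.60 and 6.44, 0.83) and Mir103-2 (6.14 and 6.81, 0.67) among the higher, and Mir5100 (6.30 and 5.44, -0.86) and Mir3961 (6.08 and 5.43, -0.65) among the lower. In KO Mir3473c was at -1.11 and Mir3961 at 0.60, opposite to WT. Mature sequences are printed for the 4 of these 5 that RefSeq (GRCm38.p6) lists, to show whether the genes share targets by their seed, bases 2 to 8, in capitals. No seed is shared among them, and 7 of the 9 were found in that table. miR-3473c lies at chr1:191998602-191998623 (minus strand), miR-103-3p at chr2:131288103-131288125 and miR-103-2-5p at chr2:131288066-131288088 (plus strand), miR-5100 at chr11:60728698-60728718 (plus strand) and miR-3961 at chr13:82698278-82698296 (minus strand).
mmu-miR-3473c: uCUCUCCAgcccccauaauaag
mmu-miR-103-3p: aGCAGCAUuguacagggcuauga
mmu-miR-103-2-5p: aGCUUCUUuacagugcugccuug
mmu-miR-5100: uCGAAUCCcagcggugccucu
mmu-miR-3961: uGCCCUCAgcucaguugga

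Probe sets outside the annotation table differed far more often. Of 8457 past the limit, 896 (10.6%) differed 1.5-fold, 519 higher and 377 lower, with an SD of 0.374, against 135 of 14218 annotated ones (0.95%). Their wider spread held at equal signal. From 8 to 9 their SD in WT was 0.261, against 0.121 for probe sets with 1 symbol, and from 5 to 6 it was 0.444 against 0.237. The KO pair showed the same, with an SD of 0.370 against 0.168 from 8 to 9 and 0.458 against 0.241 from 5 to 6. The wide spread of unlisted probe sets was thus not particular to the WT pair. These probe sets are unnamed here, so no gene can be given for them. Of 1221 probe sets with several symbols, 26 (2.13%) differed 1.5-fold, 23 of them lower.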

How the data were processed

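Total RNA of 4 samples, 1 in each of 4 groups, was hybridised to whole-transcript mouse gene arrays as biotin-labelled sense cDNA, per the labels' protocols. The deposited values are on a log2 scale, 1 for each gene-level probe set, and per the labels the authors obtained them with RMA. RMA equalises the arrays, so a shift of most genes in 1 direction cannot be seen in such values. Neither the program used for RMA nor the build of the annotation is given in the sources used here.

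The platform's table of probe sets supplied the symbols. Among 41345 probe sets, 23521 had 1 symbol, 1814 several and 16010 were unlisted. Of the probe sets with 1 symbol, 23328 were found in a RefSeq table (GRCm38.p6), which changed 0 symbols. Gene counts leave out probe sets of several symbols and a further 4828 that read olfactory receptors, receptor segments, small RNAs or predicted genes, which are described as classes. Where a gene had more than 1 probe set, the brightest was used. The limit of 5.43 has no detection call behind it. A difference "against the limit" takes signals below 5.43 at 5.43. Because each group holds 1 array, differences were counted at 1.5-fold and not tested. The number of arrays limits the precision.

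Named genes were the 12 largest differences in each direction past the limit on both WT arrays, the 8 in each direction with a mean signal of at least 8, up to 4 members of each list, defining members of a list, Xcr1 and Xcl1, and up to 2 probe sets in each direction of a class. Members, lists and classes were chosen with earlier results of these data known. The families, other named genes, the count of bright genes past 0.32 and subtraction of the median by signal were chosen after the values were seen.

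Alternatives were a 2-fold threshold, other limits, dim signals raised to the limit, cyclic loess, centring on the gene median, the mean of probe sets and keeping the left-out classes. Counting was tested on simulated arrays. Python 3.11.15, numpy 2.4.6, pandas 2.3.3, R 4.3.3 and limma 3.58.1 (loess only) were used.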

Additional observations from a re-analysis of the deposited data

Results flagged for a closer look

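Ccr8 and Ptma-ps2 passed 1.5-fold in opposite directions in the genotypes, and the difference between the genotypes was not tested. Ccr8, the chemokine receptor gene, differed by -0.71 in WT and 0.71 in KO. In WT its signal was 5.56 with LPS and 4.85 with XCL1, and in KO 5.14 and then 5.86, so the lower signal was below the limit in each pair, and against the limit the differences were -0.13 and 0.43. Ptma-ps2, a pseudogene of prothymosin alpha, differed by -0.73 in WT and 0.65 in KO, with both WT signals below the limit (5.35 and 4.62).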

How the results depend on the processing

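The counts of 25 higher and 37 lower genes depended on the threshold and on the limit on signal. They were 65 and 121 among 17528 genes with no limit, 6 and 5 with the limit at 6.91, 10 and 13 with the limit on both WT arrays, and 13 and 14 with dim signals raised to it. A 2-fold threshold left 1 and 1. The counts were 13 and 65 after the gene median of each array was subtracted. With the left-out classes kept, 60 genes were lower. Within 1.5 times of the reported counts were those after cyclic loess (30 and 28, sharing 50 of the 62 genes), the mean of probe sets (23 and 35, sharing 58), the limit on at least 1 WT array (25 and 31) and, chosen after seeing the data, subtraction of the median by signal (33 and 30, sharing 50). No gene called in WT changed sign under a scaling. The median of the erythroid and platelet list, 0.00, was 0.20 with the stricter limit and with the limit on both WT arrays. No paired analysis was possible because the labels give no replicate numbers and each group has 1 array, and leaving out an array was not possible for the same reason. Low signal limits the dim genes, of which 39 of the 62 had a WT signal below the limit.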

Other observations

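The called genes were spread over the chromosomes. Chromosome 9 held the most higher genes, and chromosomes 11 and 15 the most lower ones. Over all genes 0.226% were higher and 0.334% lower. On chromosome 9, 7 of 628 genes were higher, namely Xcr1 (0.77), Zfp872 (0.68), Trim43c (0.67), Smad3 (0.65), Tnfaip8l3 (0.62), Zfp846 (0.62) and Foxr1 (0.60), and 3 were lower. On chromosome 15, 5 of 456 genes were lower, which were Lypd2 (-0.66), Apol9b (-0.65), Apol9a (-0.64), Apol7b (-0.60) and Krt90 (-0.59), and on chromosome 11, 5 of 938. Against the limit Zfp872 (0.27), Tnfaip8l3 (0.02), Zfp846 (0.43) and Foxr1 (0.54) fell short of 1.5-fold. So did Lypd2 (-0.43), Apol9b (-0.44) and Krt90 (0.0). These genes and chromosomes were picked after their values were seen. Of the 62 genes, 59 were protein-coding genes, among 10925 past the limit.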
